A study of Arabidopsis thaliana with 3 samples.

Results

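ATC, the Arabidopsis thaliana counterpart of CENTRORADIALIS (AT2G27550), was followed across 3 arrays of whole shoots. It was represented by 1 probe set, annotated to this gene alone, among 22746 that were compared. ATC was chosen by its log2 difference between the flp-1/myb88 double mutant and Col, as the largest rise, so its own values on all 3 arrays are a description without a test. The shoots came from plants aged 10 days, kept in constant light at 22 °C. The groups were Col, the wild type, with 2 arrays, and the double mutant flp-1/myb88 with 1 array, which had no replicate. The flp-1 and myb88 lesions affect FLP and MYB88, a pair of MYB transcription factors that stop divisions at the end of the stomatal lineage. The labels name no transgene and do not give the plants behind each Col array, so the spread between them may be technical. Amplified cDNA made from 25 ng of total RNA was hybridized to the arrays, whose small number limits the precision throughout.

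ATC belongs to the phosphatidylethanolamine-binding proteins, a small family whose members set the time and place of flowering. FT and TSF promote flowering, whereas TFL1 keeps the shoot tip from turning into a flower, and ATC and BFT can repress flowering in a similar way. These proteins act with the bZIP factor FD, and repressors and promoters of the family compete for it. In young plants ATC is known from the vascular tissue and the hypocotyl, and its product inhibits floral initiation in short days.

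The ATC probe set had a low value in Col and an intermediate one in the mutant. Its intensity, the linear RMA value, was 28.6 on Col array 1, 27.2 on Col array 2 and 164 on the flp-1/myb88 array. On the log2 scale, used from here on, these levels were 4.84, 4.77 and 7.36. The mutant value lay above both Col values, which nearly coincided. Over the mean of the Col arrays the difference was 2.56 ± 0.30 log2 (SE of the limma fit, 2 Col arrays and 1 mutant array), or 5.89-fold. Against the single Col arrays it was 2.52 and 2.59. ATC was chosen for this difference and the mutant array adds no spread of its own, so the SE is no measure of confidence. The median difference over all probe sets was 0.10 log2, so ATC stood 2.46 above the general shift.

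In rank, ATC moved from the lower to the upper part of the array. It was number 16663 of 22746 from the top on Col array 1, number 16997 on Col array 2 and number 6382 on the mutant array. Expressed as shares, 26.7%, 25.2% and 71.9% of probe sets had lower values. Relative to the array median, the ATC level was -1.26 and -1.36 log2 in Col and 1.35 log2 in the mutant. Among the 13513 probe sets of exactly 1 gene the ranks were 9413, 9634 and 3176. A probe set's rank also depends on how well its probes bind, so it places ATC within an array and does not give its transcript amount relative to other genes.

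**Figure D1:**
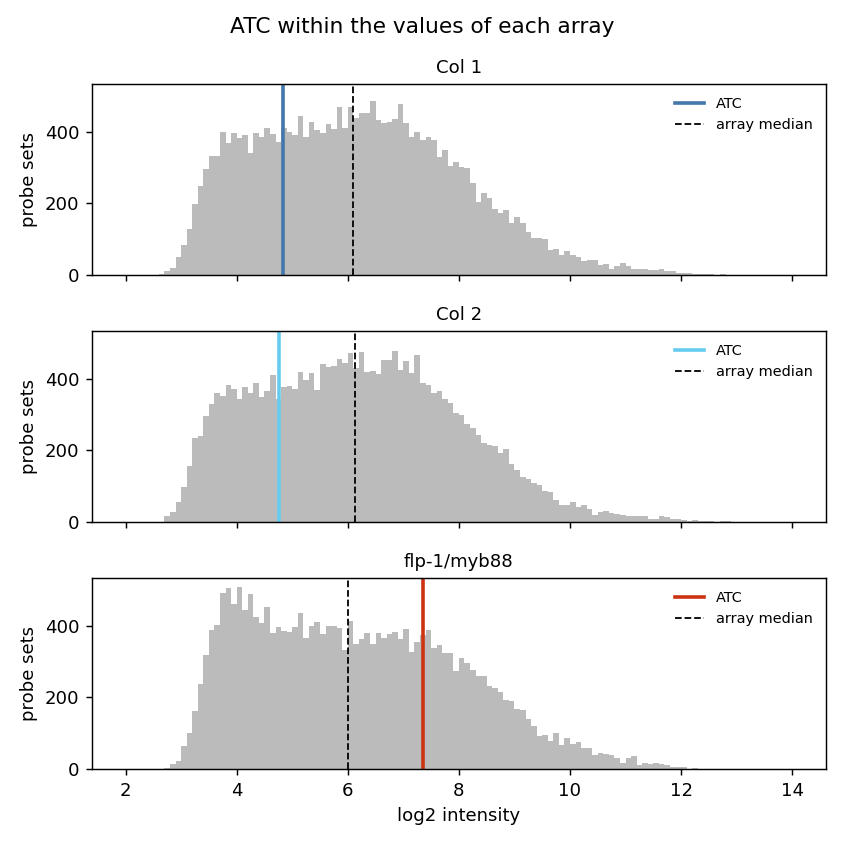
Distribution of log2 intensity over 22746 probe sets (horizontal axis, log2 intensity; vertical axis, number of probe sets per bin) on each array, with the ATC value as a coloured line and the array median as a dashed line. ATC lies left of the median on both Col arrays, at 4.84 and 4.77, and right of it on the flp-1/myb88 array, at 7.36.

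The Col level of ATC was within the range of annotated pseudogenes, used here as a set of low values, some of which may be transcribed. Of 989 probe sets of annotated pseudogenes, 34.7% exceeded ATC on Col array 1 and 35.1% on Col array 2, but 2.83% did so on the mutant array. A Col signal of ATC above background was therefore not shown, which makes the size of its fold difference uncertain. The bacterial poly-A control probe sets, another set of low values, had median levels of 3.10 and 3.04 on the Col arrays and of 3.47 on the mutant array. All 27 of them were higher on the mutant array, and ATC lay above all 27 on each array. The pseudogene probe sets, a larger set of low values, did not share this shift in their median, which was 4.06 and 3.99 in Col against 3.89 in the mutant.

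The Col arrays nearly agreed at ATC. The level on Col array 2 differed from that on array 1 by -0.07 log2, where the median size of this gap over all probe sets was 0.25. A smaller gap was found at 16.1% of probe sets. The mutant difference of ATC was 35.4 times its own Col gap. ATC was chosen for that difference and the gap rests on 2 arrays, so this ratio is no measure of confidence. There were 3657 probe sets whose Col arrays were at least as close. ATC led these by mutant difference, which follows from its choice as the largest rise and is no separate finding. After it came the unnamed probe set 251395_at, at 2.02 log2. The next with a gene, all 3 picked after their values were seen, were AT1G02180 at 1.91 and SPK1 at 1.71, the latter encoding SPIKE1, an exchange factor for ROP GTPases that shapes leaf epidermal cells.

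The description of ATC as the largest rise holds for named genes and not for every probe set. In the order of differences from the Col mean ATC was number 2 of 22746 and number 1 of the 13513 probe sets of exactly 1 gene. Ahead of it was 249065_at, a probe set unnamed here, with levels of 5.24 and 4.65 in Col against 7.91 in the mutant, a difference of 2.96 log2. Just behind it came AT1G71730, at 5.75 and 4.55 in Col against 7.55 in the mutant (difference 2.40), and EXPA4, an expansin that loosens cell walls, at 5.01 and 4.23 in Col against 7.0 in the mutant (2.38). The unnamed probe sets 245499_at, 252441_at and 261204_s_at followed, with differences from 2.26 down to 2.19. In all 7 of these the mutant value was above both Col values, which follows from their choice as the largest rises. Col array 2 was the lower of the Col arrays in all 7, and how often this held over all probe sets was not counted. At least 2 log2 above both Col arrays were 4 probe sets of 22746 (0.0176%), namely 249065_at, ATC, 245499_at and 245296_at, the last unnamed and picked after its value was seen.

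**Figure D2:**
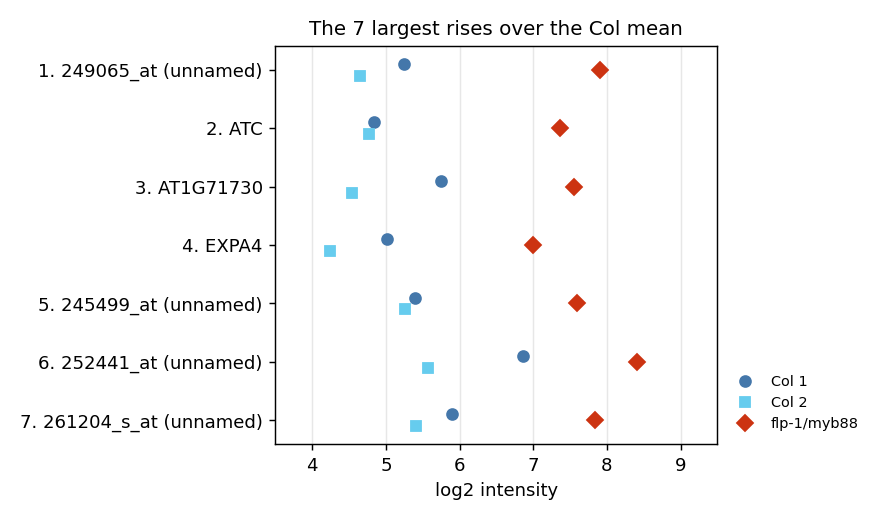
The 7 largest rises over the Col mean, ordered by rank from the top, with log2 intensity on the horizontal axis and 1 point per array (circle, Col 1; square, Col 2; diamond, flp-1/myb88). The Col points of ATC almost coincide, whereas those of AT1G71730 lie at 5.75 and 4.55.

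The place of ATC at the top depended on the Col array used. Against Col array 1 alone it was number 2 of all probe sets and number 1 of the named genes. Against Col array 2 alone it was number 8 and number 3. The 7 probe sets ahead of it there had differences from that array of 2.62 to 3.25 log2, with AT1G71730 at 3.01 and EXPA4 at 2.77 the only named genes among them. Each of the 7 had a Col gap of -0.59 log2 or further from 0. The difference of ATC itself changed by 0.07 log2 between these comparisons.

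**Figure D3:**
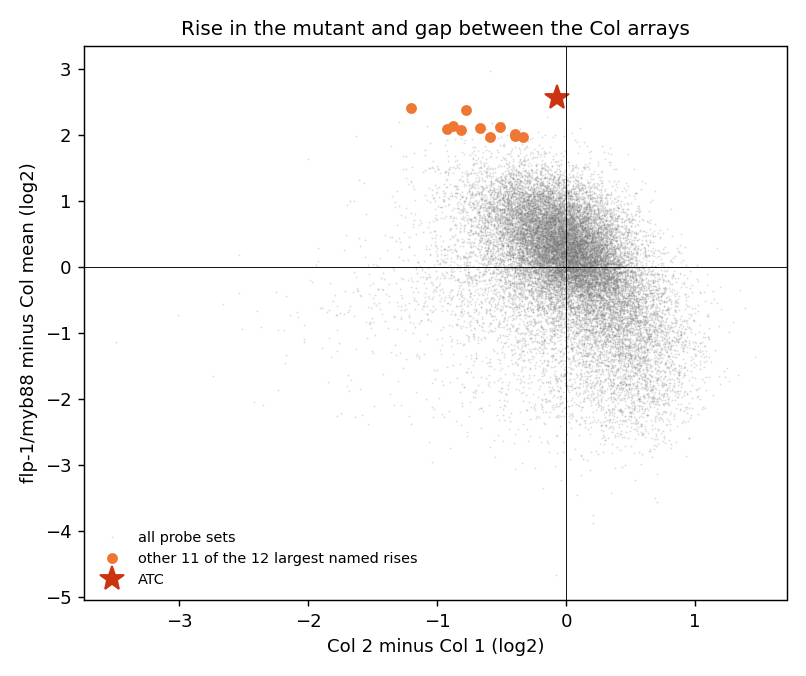
Difference of the flp-1/myb88 array from the Col mean (vertical axis, log2) against the difference of Col array 2 from Col array 1 (horizontal axis, log2) for all 22746 probe sets (grey), ATC (red star) and the other 11 of the 12 largest rises of named genes (orange). ATC, at -0.07 and 2.56, lies nearest to 0 on the horizontal axis among these 12.

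Among probe sets with a Col level like that of ATC, 1 had a larger mutant difference. There were 1969 with a Col mean within 0.25 log2 of it, and their median mutant difference was -0.02, with the 5th percentile at -1.13 and the 95th at 1.28. At least 2-fold above both Col arrays were 161 of them (8.18%), against 5.13% of all probe sets. ATC ranked number 2 in this group, again behind 249065_at. Since ATC was chosen as the largest named rise and was number 2 of all probe sets, this place is no separate finding.

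Genes whose values over the 3 arrays were most like those of ATC were found by Euclidean distance among the other 13512 probe sets of exactly 1 gene. After each was centred on its own mean, the nearest were AT5G64190 at a distance of 0.48, AT3G01340 at 0.50, EXPA4 and AT5G45620 both at 0.52, and AT2G37190 at 0.53, where the median distance was 2.05. Their mutant differences were 1.96 to 2.38 log2, and their Col gaps were -0.34 to -0.78, each wider than that of ATC. That each difference was smaller than that of ATC follows from its choice as the largest named rise. Without centring, the nearest were AT3G01340 at 0.51, EXPA4 at 0.66 and AT3G07540 at 0.66, against a median of 3.35. With 3 arrays of which 2 are alike, such likeness is little more than a similar rise.

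None of the relatives of ATC could be set beside it. Of the 5 other family members, TFL1, FT, TSF, BFT and MFT, 0 had a probe set annotated to a single gene, and they were not analysed here. Among 66 genes of flowering and of the shoot meristem on the lists used, 8 had a named probe set. In the limma fit 0 of these 8 were higher and 1 was lower in the mutant, where 11.9% of all 22746 probe sets were called higher and 14.4% lower. Their median difference was -0.04 log2, against 0.10 over all probe sets. These 8 genes are too few to describe the flowering state of the shoots.

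FD, the bZIP partner of the family and the 1 measured of 14 partner genes, which otherwise were 14-3-3 proteins and FDP, had levels of 3.89 and 3.85 in Col against 4.23 in the mutant. Its difference of 0.36 ± 0.30 log2 did not pass (limma adjusted p = 0.396). AGL24, a MADS-box promoter of flowering and the 1 measured of 13 genes that carry the floral signal onwards, stood at 6.18 and 6.37 in Col and 5.88 in the mutant, a difference of -0.39 ± 0.30 log2 (limma adjusted p = 0.355). The FD value lay above both Col arrays and the AGL24 value below both, and neither was called.

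SNZ was the single flowering gene that passed. SNZ (SCHNARCHZAPFEN) encodes an AP2-type repressor of flowering, and its level fell by 1.00 ± 0.31 log2, from 6.25 and 6.65 on the Col arrays to 5.45 (limma adjusted p = 0.0324), or 2.00-fold. SNZ lost this call when the arrays were median centred (difference -0.90, limma adjusted p = 0.0558) or quantile normalized (difference -0.86, adjusted p = 0.0857). SMZ, a repressor of the same AP2 group, had levels of 6.17 and 6.44 in Col against 6.57 in the mutant, a difference of 0.27 ± 0.30 log2 (limma adjusted p = 0.545). The contrast between SNZ and SMZ was not tested.

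The remaining measured genes of flowering time, 5 of 34 with SNZ and SMZ, did not pass in the limma fit. FY, an RNA 3′ end processing factor of the autonomous pathway, had levels of 5.52 and 5.18 in Col against 4.82 in the mutant (difference -0.52, adjusted p = 0.226). LD, a homeodomain protein of the same pathway, differed by 0.21 (adjusted p = 0.652). GI, a clock-linked protein that promotes flowering in long days, differed by 0.03 (adjusted p = 0.952), with the mutant value between the Col values. CLV3, the peptide that limits stem cells at the shoot apex and the 1 measured of 5 meristem genes, differed by -0.12 (adjusted p = 0.801).

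The measured genes beside ATC on chromosome 2 give its surroundings, and since ATC was chosen as the largest named rise, their smaller differences follow from that choice. The 5 nearest on each side with a probe set of exactly 1 gene reached up to 11 genes away, and their differences ran from -0.39 at AT2G27630 to 1.09 at AT2G27480. Of these 10, 2 were called higher and 0 lower by limma, against 11.9% and 14.4% of all probe sets. PGY1, which encodes the ribosomal protein L10a and lies 3 genes before ATC, stood at 9.26 and 8.81 in Col and 10.00 in the mutant, a difference of 0.96 ± 0.32 log2 (limma adjusted p = 0.0408). PGY1 lost this call with quantile normalized arrays (difference 0.73, limma adjusted p = 0.130) and with cyclic loess (difference 0.74, adjusted p = 0.0927). AT2G27480, 11 genes before ATC, stood at 4.24 and 3.89 in Col and 5.15 in the mutant (difference 1.09 ± 0.31, limma adjusted p = 0.0216).

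The nearest measured gene after ATC, AT2G27570, had levels of 3.19 and 3.17 in Col against 3.62 in the mutant, a difference of 0.45 ± 0.30 log2 (limma adjusted p = 0.287). The nearest before it apart from PGY1, AT2G27520, differed by 0.47 (limma adjusted p = 0.267). AT2G27580 differed by 0.89, at 8.63 and 7.83 in Col against 9.12 in the mutant, and missed the threshold (limma adjusted p = 0.0794). The other 5, ATCOAE (a dephospho-CoA kinase), AT2G27500, AT2G27590, AT2G27610 and AT2G27630, lay between -0.39 and 0.34. The median difference of the 10 was 0.39 log2, against 0.10 over all probe sets.

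**Figure D4:**
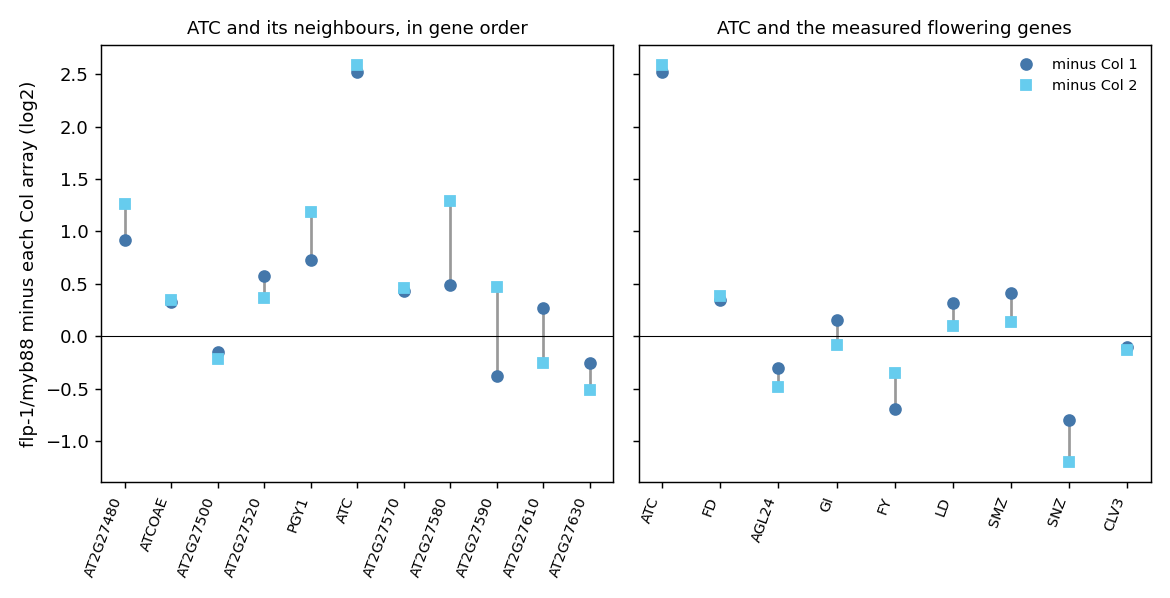
Difference of the flp-1/myb88 array from each Col array (vertical axis, log2; circle, minus Col 1; square, minus Col 2) for ATC and its 10 measured neighbours in gene order (left) and for ATC and the 8 measured flowering and meristem genes (right). ATC lies at 2.52 and 2.59, and the neighbours reach 0.92 minus Col 1 (AT2G27480) and 1.29 minus Col 2 (AT2G27580).

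The tissue label was checked on the few named marker genes. LHCB4.1, PSAN and RCA, the 3 measured of 6 leaf photosynthesis genes, had levels of 10.05 to 11.53 on the Col arrays and 10.73 to 11.78 on the mutant array, and their differences of 0.39 to 0.47 log2 did not pass in the limma fit (adjusted p = 0.291 to 0.369). Of 9 root genes 2 were measured. PYK10, a beta-glucosidase abundant in roots and in the epidermis of seedlings, stood at 11.66 and 11.61 in Col and 11.40 in the mutant. EXPA7, an expansin of root hairs, stood at 4.54 and 3.78 in Col and 4.0 in the mutant. Neither passed in the limma fit (adjusted p = 0.599 and 0.762). The 8 seed genes and 3 floral organ genes had 0 named probe sets and were not analysed here, so the amount of seed or floral tissue in each sample was not measured. In whole shoots, more cells that express ATC and more ATC RNA per cell cannot be told apart.

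Signs of RNA quality also differed between the groups. In 6 of 6 pairs of plant control probe sets the excess of the 3′ over the 5′ probe set was larger in the mutant than in either Col array, with median log2 differences of 2.37 and 2.31 in Col against 2.92. Their part in the ATC difference was not tested. Log2 values over all probe sets, which are not independent replicates, correlated at r = 0.974 between the Col arrays and at 0.911 and 0.872 between the mutant and Col arrays 1 and 2. Since the mutant is a single array, its genotype and its handling cannot be told apart.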

How the data were processed

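The deposited table holds one intensity per probe set and array. The authors made these values with RMA, which subtracts background, normalizes arrays by quantiles and summarises the probes of a set, per the submitters' processing notes. For the software, its version and its settings, nothing is recorded in the labels. The deposited intensities were read as linear from their range of 6.06 to 7618 with none below 0, and log2 was taken with no pseudocount. After removal of 64 control probe sets, 22746 remained. Of these, 13513 had exactly 1 gene in the platform annotation, 503 had several and 8730 are unnamed here. By gene ID, 13436 of them matched the TAIR10.1 gene table, which gave symbols and gene order. No coordinates are printed, since the build of the files is not stated. Columns left out numbered 0.

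All 22746 probe sets were fitted with limma 3.58.1 in R 4.3.3 (lmFit and eBayes, two-sided, Benjamini-Hochberg adjustment, threshold 0.05). The 2 Col arrays supplied the only residual degree of freedom (1), and the mutant array was assumed to vary like them. On simulated data with 200 changed probe sets, the share of false calls exceeded the adjusted threshold at each size of change. It was 50% at 2-fold (9 false calls beside 9 recovered), 6.3% at 4-fold and 28.1% at 8-fold. Single calls near the threshold were taken as uncertain. With no change simulated, 0 probe sets were called. Of the 200 simulated 2-fold changes 9 were recovered. The simulation changed far fewer probe sets than the 2700 called higher and 3282 called lower in the data. Its recovery and its false shares may therefore not carry over to these data. A gene that did not pass may still differ. ATC itself received no test, because it was chosen for its difference.

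ATC and the gene lists were chosen with earlier results of these data known. The genes named are ATC, any larger rise and the 5 rises after it, the 5 genes nearest to it over the centred values of the 3 arrays and the 3 nearest without centring, 5 measured neighbours on each side, and the measured list members. Genes named outside this rule were chosen after their values were seen, as the text says. Alternatives were 3 rescalings of the arrays, a constant of 16 added before log2, leaving out each Col array, 2 variance models and a filter on dim probe sets. Ranking by linear differences was added after seeing the data.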

Additional observations from a re-analysis of the deposited data

Results flagged for a closer look

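In the control probe sets, which were left out of the limma fit, 2 signals were higher on the flp-1/myb88 array than on the Col arrays. The bacterial poly-A controls had a median log2 level of 3.47, against 3.10 and 3.04 in Col. Pseudogene probe sets, also low in value, had medians of 4.06 and 3.99 in Col against 3.89 in the mutant. The highest 3′ minus 5′ difference among the 6 control pairs, at the first actin pair, was 5.87 log2 on the mutant array, against 5.35 and 5.34 in Col. The part of the 3′ excess in the ATC value was not tested.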

How the results depend on the processing

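The ATC difference of 2.56 log2 kept its direction under the 3 rescalings, the added constant and the omission of either Col array. Since ATC was chosen as the largest named rise, this direction follows from that choice and is no separate finding. The ATC difference was 2.66 after median centring, 2.04 after adding 16 before log2, and 2.52 to 2.59 with 1 Col array left out. Median centring moved the median of all probe sets from 0.10 to 0.21 log2, a shift of all probe sets alike. After cyclic loess ATC stood 2.60 above that median, against 2.46 as deposited. The rank of ATC ran from 2 to 8 with 1 Col array left out, was 1 among probe sets of exactly 1 gene and was 1952 by linear difference of intensities, an order chosen after seeing the data, which favours bright probe sets by construction. The filter on dim probe sets removed ATC, whose mean level of 5.65 was under the limit of 6.09. Probe sets called higher numbered 2700, and 1749 after quantile normalization; those called lower numbered 3282, and 1976 with the filter on dim probe sets. Lower calls were 54.9% of all calls and 44.8% after median centring. Of the 23 context probe sets, 3 were called, where 11.9% of all 22746 were called higher and 14.4% lower. After quantile normalization 1 of the 23 was called, where 1749 of the 22746 were called higher and 2376 lower. AT2G27580 gained a call with an intensity trend (adjusted p = 0.0231) and with the filter (adjusted p = 0.0232), both in limma. Leaving out a Col array leaves no residual degree of freedom, so those values have no test. With 1 residual degree of freedom, limma's spread for a single gene rests mostly on the other probe sets. No paired analysis was possible because the mutant has 1 array and shares fewer than 2 replicate numbers with Col.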
